A study of Mus musculus with 23 samples.

Results

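Sterols and fatty acids are both built from cytosolic acetyl-CoA. The mevalonate arm makes isoprenoid units, the squalene arm folds them into cholesterol, and fatty acid synthase makes palmitate, which elongases and desaturases then lengthen and unsaturate. SREBP transcription factors switch both pathways on: the precursor is held in the endoplasmic reticulum by Scap and Insig proteins and is released when sterol is scarce. Plasma cells need these lipids for the membranes of a large secretory apparatus.

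The 32 genes described here are enzymes, regulators and a sterol carrier of these pathways. They were taken by symbol from 24063 gene symbols in each deposited table. By role there are 7 genes of the mevalonate arm, 10 of the squalene to cholesterol arm, 5 SREBP regulators and sterol transport genes, 5 genes of fatty acid synthesis and its supply, and 5 of elongation and desaturation. All 32 passed the filter on low counts in both fits, and 29 had at least 1 read in all 23 libraries.

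RNA was measured in mouse cells sorted as CD138+B220-, the surface pattern of plasma cells. Tumour cells came from mice that had received cells of 1 of 5 donors. The 4 VQ donors, called VQ-D1 and VQ-D2 and also VQ-D4 with VQ-D5, have the genotype Vκ*MYC; NrasLSL Q61R/+; IgG1-Cre, in which a MYC transgene under a kappa light chain promoter is joined to an oncogenic Nras allele that IgG1-Cre opens. The donor line t-VK12653 has Vκ*MYC without Nras Q61R or Cre in its label. Control cells came from the bone marrow of mice with IgG1-Cre alone, so Cre is shared by the VQ and control groups but not by t-VK12653. VQ-D1 and t-VK12653 have 2 bone marrow and 2 spleen libraries each. VQ-D2 has 2 from spleen and 2 from lymph node, VQ-D5 has 2 from bone marrow and 2 from lymph node, and VQ-D4 has 1 library for each of liver, bone marrow, spleen and lymph node. There are 3 control libraries. The deposited names put the 4 libraries of each tumour line in 2 recipient mice, so libraries of a line share animals and p-values over libraries can be too small. A fit on counts summed per recipient is given where it changes a call. The labels call the cell type of every sample, controls included, that of myeloma cells, and the controls are read here as plasma cells without tumour alleles from their genotype alone. Each line is 1 donor, so the p-values of a single line measure the spread between its libraries and not between donors. The sources used here do not give ages. Transplanted tumour cells are set against control cells of mice not described as recipients.

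Libraries held 2685579 to 10047314 counts, and levels are given in CPM, counts scaled to a common library size by TMM. Plasma cell markers were present in every group: the summed CPM of 9 of them was 4630 to 15533 in tumour libraries and 34772 to 64661 in control libraries. That gap came mainly from Igj, with a mean of 40130 CPM in controls and 28.9 to 6395 in the tumour groups. Others went both ways. Slamf7 had a mean of 754 CPM in controls and 236 to 484 in the tumour groups, and Fkbp11 53.1 and 96.3 to 633. Sums of markers of other blood cells were higher in the control libraries. The summed CPM of 11 neutrophil markers was 3.54 to 1150 in tumour libraries and 3113 to 8585 in control libraries, and that of 9 monocyte and macrophage markers was 16.1 to 191 in tumour libraries and 387 to 1366 in control libraries. The sum of 8 B cell markers was 60.6 to 195 in tumour libraries and 523 to 813 in control libraries. For 12 erythroid markers it was 1.87 to 46.3 in tumour libraries and 117 to 633 in control libraries, and for 8 T and NK cell markers 0.320 to 45.8 in tumour libraries and 46.0 to 68.9 in control libraries. Such sums can rest on 1 gene. In t-VK12653 replicate 4, 7 of the 8 B cell markers had 0 reads at a sum of 83.6 CPM. In VQ-D2 replicate 1, 7 of the 8 T and NK cell markers had 0 reads at a sum of 45.8 CPM. The part of these other blood cells in the differences from control was not tested. Of 6 adipocyte markers the sum was at most 1.16 CPM in any library. The sum of 9 hepatocyte markers was at most 11.3 CPM except in the VQ-D4 liver library, at 36.5 CPM. Fewer cells of a type and less RNA per cell cannot be told apart in such bulk libraries.

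Only the promoters that the results below refer to are shown. RefSeq (GRCm38.p6) gave a promoter for 25 of the 32 genes, defined as 250 bases before to 50 bases after the start. The SREBP element of sterol genes, searched as TCACNCCAC on both strands, was found in 1 of these 25, Hmgcs1, which makes HMG-CoA in the mevalonate arm. It was found in 1.42% of the 9609 tested genes with a promoter. The CCAAT box (CCAAT), which NF-Y binds beside SREBP, was found in 20 of 25 (80%) and in 43.5% of tested genes. The E-box (CACGTG) was found in 5 of 25 (20%) and in 12.0% of tested genes, and the GC box (GGGCGG) in 21 of 25 (84%) and in 67.7%. Hmgcs1 is shown for its SREBP element and Elovl6, an elongase of palmitate, because its change from control was among the 3 largest in the VQ lines. Scd1 and Sqle are the others of those 3. Fasn and Hsd17b7 were added after their values were seen. The 250 upstream bases are given 5′ to 3′ on the gene's strand, with capitals for the SREBP element, the CCAAT box and the E-box on either strand. The window of Hmgcs1 is chr13:119690101-119690350 on the plus strand, that of Elovl6 chr3:129532136-129532385 on the plus strand, that of Fasn chr11:120824548-120824797 on the minus strand and that of Hsd17b7 chr1:169969206-169969455 on the minus strand.
Hmgcs1: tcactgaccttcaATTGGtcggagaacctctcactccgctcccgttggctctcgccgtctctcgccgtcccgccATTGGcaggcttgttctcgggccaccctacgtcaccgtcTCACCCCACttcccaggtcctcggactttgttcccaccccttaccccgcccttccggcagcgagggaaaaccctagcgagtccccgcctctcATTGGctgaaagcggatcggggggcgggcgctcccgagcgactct
Elovl6: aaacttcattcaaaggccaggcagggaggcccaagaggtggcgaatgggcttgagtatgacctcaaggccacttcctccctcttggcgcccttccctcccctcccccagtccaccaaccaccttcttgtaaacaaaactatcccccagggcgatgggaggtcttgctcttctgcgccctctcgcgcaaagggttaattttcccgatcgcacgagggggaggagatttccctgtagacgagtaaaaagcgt
Fasn: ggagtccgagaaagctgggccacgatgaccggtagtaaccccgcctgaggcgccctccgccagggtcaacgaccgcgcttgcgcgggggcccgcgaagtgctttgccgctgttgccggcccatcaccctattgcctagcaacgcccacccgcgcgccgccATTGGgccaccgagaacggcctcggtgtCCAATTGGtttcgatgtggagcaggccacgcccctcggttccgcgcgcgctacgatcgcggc
Hsd17b7: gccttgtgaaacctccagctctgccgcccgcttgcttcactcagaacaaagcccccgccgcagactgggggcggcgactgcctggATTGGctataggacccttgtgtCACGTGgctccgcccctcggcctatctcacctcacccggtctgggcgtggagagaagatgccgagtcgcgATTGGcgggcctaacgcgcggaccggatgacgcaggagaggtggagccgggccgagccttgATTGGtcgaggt
None of the 3 motifs marked by capitals was found upstream of Elovl6. Fasn had the CCAAT box 3 times, on both strands, and no E-box. Hsd17b7, a ketosteroid reductase of the cholesterol arm, had the CCAAT box 3 times and the E-box. A match is a run of letters, not a binding site.

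Summed, the 32 genes took up more of the RNA of every tumour line than of control plasma cells, which does not show a rise of each gene. The summed CPM of the 32 genes reached 2614 ± 263 in VQ-D1, with VQ-D2 at 1930 ± 106, VQ-D4 at 1963 ± 217, VQ-D5 at 2503 ± 240 and t-VK12653 at 2117 ± 210 (n = 4 libraries each), and controls at 1178 ± 66.5 (n = 3; errors are SD). The groups did not overlap: the 20 tumour libraries lay at 1776 to 2819 CPM and the 3 controls at 1129 to 1254 CPM. Much of the sum came from 2 genes, the desaturase Scd2 and the synthase Fasn. They made up 58.1% of it in VQ-D1 and 52.5% in t-VK12653, between 35.2% and 36.6% in the other 3 lines, and 21.3% in controls.

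**Figure D1:**
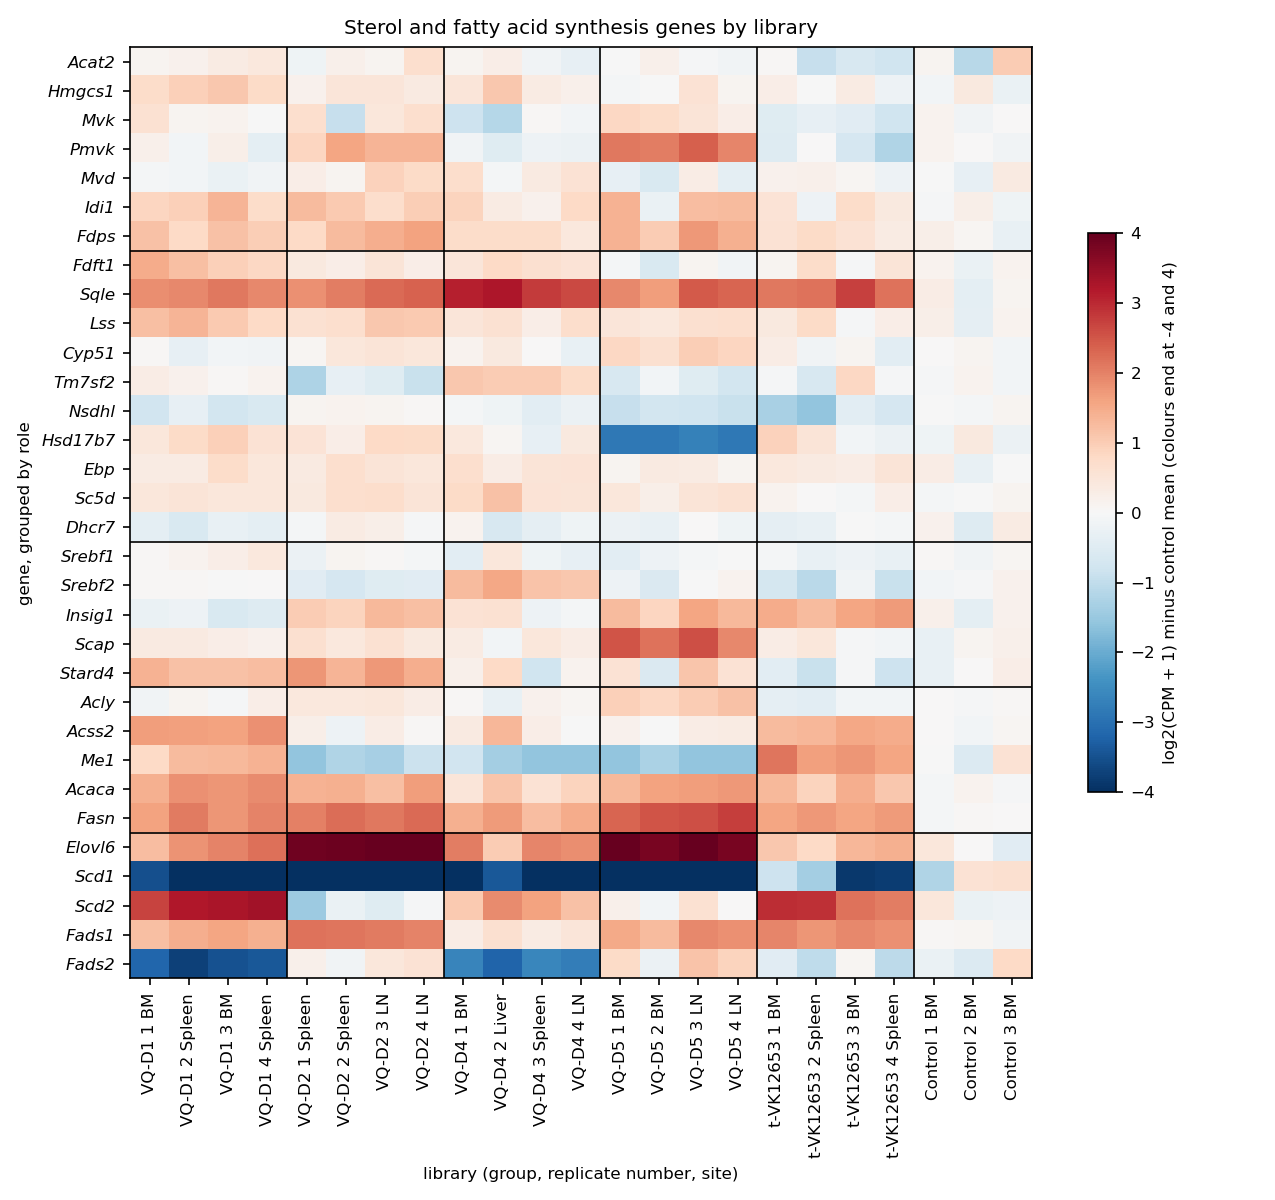
Colour gives log2(CPM + 1) minus the control mean for each of the 32 genes (rows, grouped by role) in each of the 23 libraries (columns; 20 tumour libraries, then 3 controls). Sqle, Fasn and Elovl6 are above control in all 20 tumour libraries, Scd1 is far below control in the 16 VQ libraries, and Hsd17b7 is below control in VQ-D5.

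Against control, the VQ genotype was tested on counts summed per donor, 4 line sums against 3 control libraries, with edgeR's quasi-likelihood test and Benjamini-Hochberg adjustment over all genes. Of the 32 genes, 8 rose and 1 fell at an adjusted p under 0.05. Of all 13870 genes tested, 23% passed in either direction, 13.7% as higher and 9.27% as lower. The genes that rose were Elovl6, Sqle, Fasn, Fads1, Acaca, Fdps, Lss and Sc5d, and the gene that fell was Scd1. In simulated counts this test found 1% of 100 genes changed 2-fold and 37% of 100 changed 4-fold. A gene that did not pass is thus not shown to be unchanged. Averaging the lines within the 23-library fit gave 19 higher and 4 lower. The median log2 fold change was 0.69 over the 32 genes and 0.19 over all genes tested. The calls of 6 of the 9 genes rest on having 3 controls: with 1 control left out, between 3 and 4 of the 32 genes passed, among them Sqle, Fasn and Scd1 each time. Line sums pool several sites while all controls are bone marrow, and with bone marrow libraries alone 6 of the 9 passed, without Fads1, Lss and Sc5d. VQ-D2 has no bone marrow library and is absent from that fit. Site, the loss of a donor and fewer reads cannot be told apart there.

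Single lines were compared with control in 1 fit of all 23 libraries with terms for group and site. These 5 comparisons share the same 3 control libraries. In VQ-D1, 17 of the 32 genes rose and 3 fell, where 29.7% of all 12867 genes tested were higher and 29.7% lower. In VQ-D2, 15 rose and 3 fell, against 29.6% and 27.8% of all genes. In VQ-D4, 10 rose and 4 fell, against 27.5% and 26.9%. In VQ-D5, 13 rose and 4 fell, against 31.2% and 32.5%. In t-VK12653, 11 rose and 3 fell, against 28.8% and 28.1%. The share that rose was thus 53.1% in VQ-D1 and 46.9% in VQ-D2, above the background, while 31.2% in VQ-D4 and 34.4% in t-VK12653 were near it and 40.6% in VQ-D5 lay between. Counted in both directions, 62.5% of the 32 genes passed in VQ-D1 (59.4% of all genes) and 56.2% in VQ-D2 (57.5%). The share was 43.8% for VQ-D4 (54.3%), 53.1% for VQ-D5 (63.8%) and 43.8% for t-VK12653 (56.9%), near or below that of all genes throughout.

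**Figure D2:**
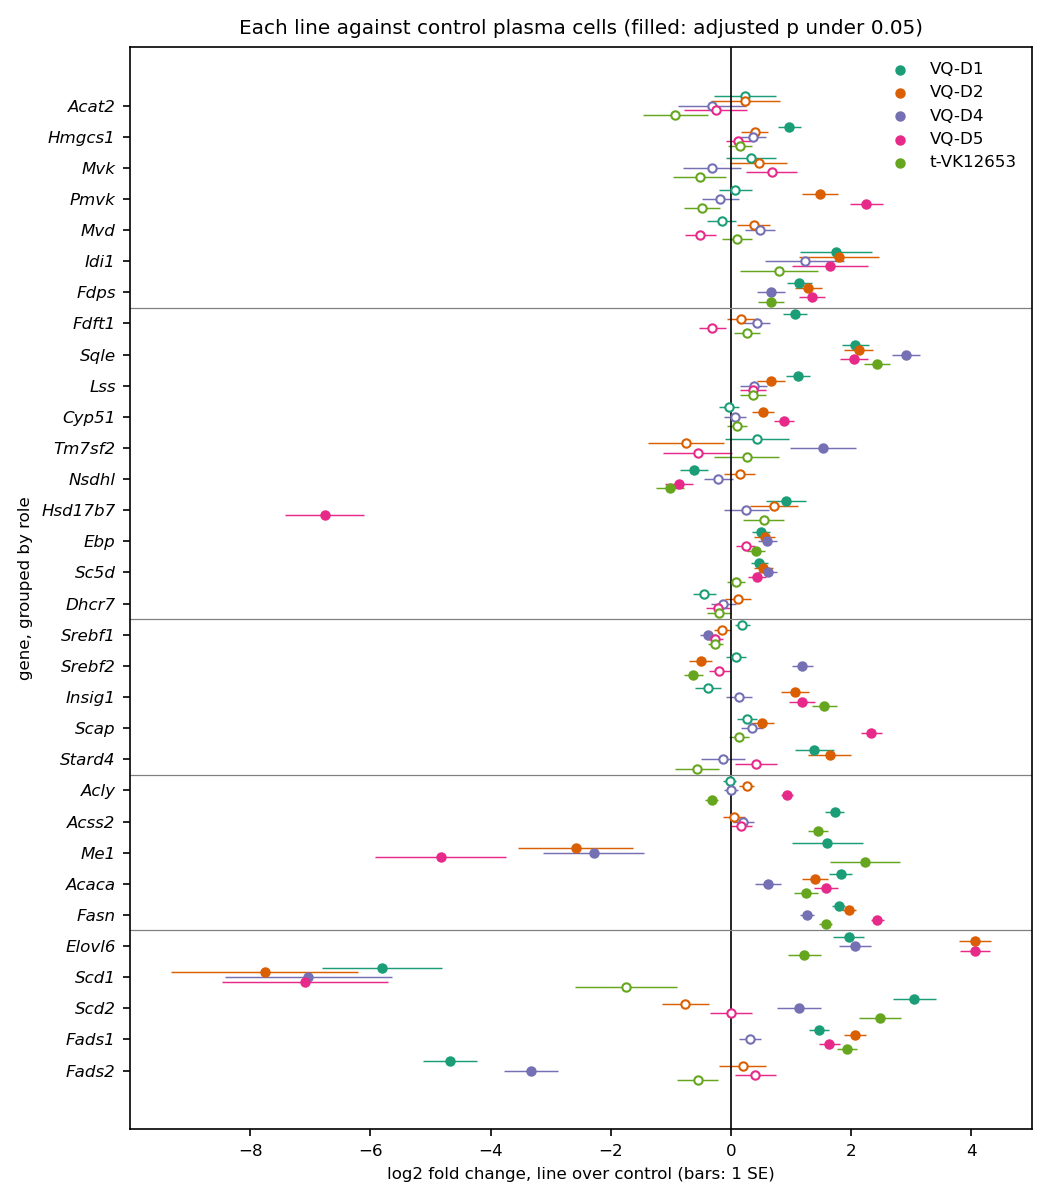
Points give the log2 fold change of each line over control for the 32 genes, bars 1 SE, and filled points an adjusted p under 0.05. Sqle, Acaca, Fasn, Elovl6 and Fdps are filled and right of 0 in all 5 lines, while Scd1 is left of 0 in all and filled in the 4 VQ lines.

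In the mevalonate arm, Fdps, which makes farnesyl diphosphate, rose in all 5 lines. It had 31.3, 24.2, 31.7 and 27.5 CPM in VQ-D1. VQ-D2 had 24.0, 33.6, 38.4 and 42.9, VQ-D4 had 23.2, 23.4, 23.4 and 18.5, VQ-D5 had 37.1, 28.2, 46.9 and 37.7 and t-VK12653 had 20.4, 23.7, 20.7 and 17.3 CPM, against 15.9, 14.3 and 10.8 CPM in controls. No tumour library overlapped the controls. Its log2 fold changes were between 0.67 in VQ-D4 and 1.35 in VQ-D5 (adjusted p 0.0164 and 1.09e-05, edgeR's quasi-likelihood test). The calls in VQ-D4 and t-VK12653 were lost without control replicate 3, and that in VQ-D4 also without VQ-D4 replicate 1 or 3. In the annotation, 64.1% of the 50-base windows of the Fdps transcript are shared with other genes, mainly Gm43738, so reads could be split between them.

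Pmvk, the phosphomevalonate kinase, separated the lines of 1 genotype. It had 16.9, 28.5, 24.2 and 23.9 CPM in VQ-D2 and 41.2, 39.5, 50.8 and 37.0 CPM in VQ-D5, against 9.73, 8.87 and 7.88 CPM in controls, with no overlap. It rose by a log2 fold change of 1.48 ± 0.30 (SE) in VQ-D2 and 2.25 ± 0.27 in VQ-D5 (adjusted p 2.50e-04 and 2.17e-07). In VQ-D1, VQ-D4 and t-VK12653 its levels were 6.41 to 10.5, 6.04 to 7.81 and 3.29 to 8.84 CPM, and the test was not passed. Hmgcs1 rose in VQ-D1, with 35.8, 42.5, 46.4 and 36.8 CPM against 19.8, 28.0 and 17.3 CPM in controls (log2 fold change 0.97 ± 0.20, adjusted p 2.15e-04), and the groups did not overlap. In the other 4 lines it had a log2 fold change between 0.12 and 0.39 and did not pass. Idi1, the isopentenyl diphosphate isomerase, was low everywhere, and 28.6% of its 50-base windows are shared with other genes, among them Gm13502 and the opposite-strand Gm48574. It was at 3.08 ± 0.821 CPM in VQ-D1, 3.10 ± 0.637 in VQ-D2 and 3.16 ± 1.66 in VQ-D5 (SD, n = 4 each) and 1.04 ± 0.294 in controls (SD, n = 3). It rose in those 3 lines, with 1 VQ-D5 library below all controls. All 3 calls were lost without control replicate 3, those in VQ-D2 and VQ-D5 also without control replicate 1 or the line's replicate 1, and that in VQ-D1 without VQ-D1 replicate 3. Mvk, Mvd and Acat2, a kinase, a decarboxylase and the thiolase that feeds the arm, passed in no line. Acat2 shares 40.7% of its 50-base windows with its neighbour Acat3.

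In the cholesterol arm, Sqle rose in all 5 lines. This monooxygenase makes squalene epoxide, a rate-limiting step of the arm. It had 45.9, 48.4, 54.8 and 48.8 CPM in VQ-D1. VQ-D2 had 44.9, 53.2, 61.3 and 65.8, VQ-D4 had 111, 121, 89.2 and 81.2, VQ-D5 had 48.2, 40.4, 70.6 and 63.9 and t-VK12653 had 54.8, 57.9, 86.5 and 58.1 CPM, against 14.9, 8.87 and 13.1 CPM in controls. The lowest tumour library, at 40.4 CPM, lay above the highest control, at 14.9 CPM. The log2 fold change was 2.60 ± 0.35 for the VQ line sums (adjusted p 0.00523) and between 2.05 and 2.91 for the 5 lines. VQ-D4 was highest among the VQ lines: the log2 fold change was -0.84 for VQ-D1 over VQ-D4, -0.79 for VQ-D2 over VQ-D4 and 0.87 for VQ-D4 over VQ-D5, all at an adjusted p under 0.05 (4.64e-04, 5.93e-04 and 2.21e-04).

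**Figure D3:**
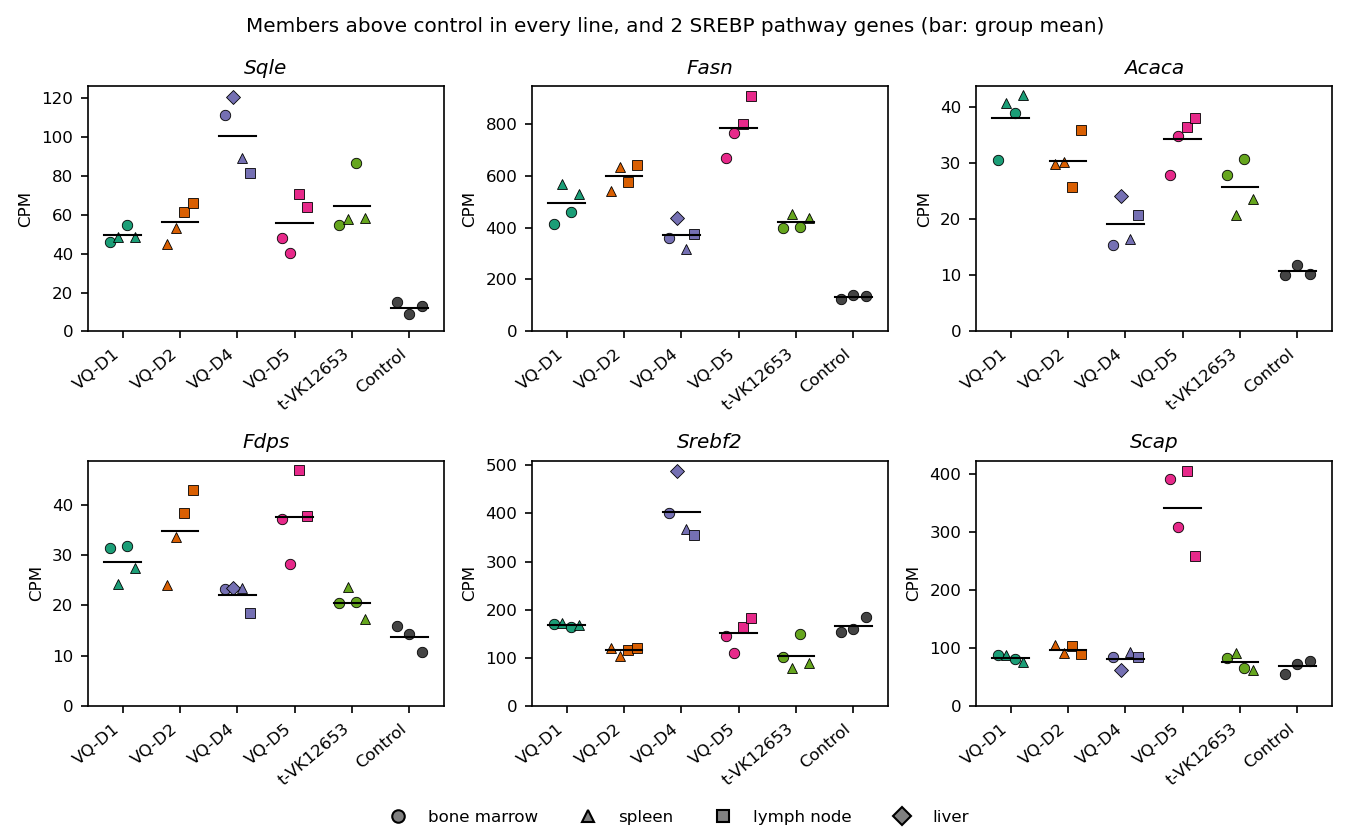
Points give CPM per library for 6 genes by group, with symbols for the site and a bar at the group mean. Sqle, Fasn, Acaca and Fdps lie above all 3 controls in each tumour library; Srebf2 is highest in VQ-D4 (354 to 489 CPM) and Scap in VQ-D5 (258 to 406 CPM).

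Hsd17b7 was all but missing in 1 line. The 4 VQ-D5 libraries together held 1 read, at 0, 0, 0.131 and 0 CPM. VQ-D1 had 8.88, 11.4, 13.2 and 9.90 CPM, VQ-D2 9.55, 7.82, 11.6 and 11.4 CPM, VQ-D4 8.69, 6.65, 4.87 and 8.63 CPM, t-VK12653 12.7, 9.40, 5.77 and 5.21 CPM and controls 5.51, 8.53 and 5.25 CPM. VQ-D5 thus overlapped no other group. Against the 62 reads of the 3 controls, the ratio of control to VQ-D5 at equal depth was 156, with an exact 95% counting interval of 27.0 to 6267. None of its 50-base windows was shared with another gene. In VQ-D1 it rose by a log2 fold change of 0.92 ± 0.33 (adjusted p 0.021), a call lost without VQ-D1 replicate 3 or control replicate 1 or 3 and with counts summed per recipient.

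The later sterol enzymes moved less. Ebp, the sterol isomerase, rose in VQ-D1, VQ-D2, VQ-D4 and t-VK12653 by 0.42 to 0.61, and Sc5d, the lathosterol oxidase, in the 4 VQ lines by 0.44 to 0.61 on the log2 scale. The Ebp calls in VQ-D1, VQ-D2 and t-VK12653 were lost without control replicate 2, that in VQ-D1 also without VQ-D1 replicate 3 and that in t-VK12653 without control replicate 3 or with counts summed per recipient. The Sc5d calls were lost in VQ-D4 without VQ-D4 replicate 1 and in VQ-D5 without VQ-D5 replicate 1 or control replicate 2. Cyp51, the lanosterol demethylase, had 40.7, 35.8, 45.6 and 42.0 CPM in VQ-D5 against 22.7, 24.2 and 21.0 CPM in controls and rose by 0.88 ± 0.17 there (adjusted p 1.07e-04). It rose in VQ-D2 too, by 0.54, with overlapping ranges (24.0 to 32.8 CPM in VQ-D2 and 21.0 to 24.2 CPM in controls), and that call was lost without VQ-D2 replicate 2. Nsdhl, a decarboxylating dehydrogenase, went the other way. It had 11.0, 12.9, 12.1 and 11.2 CPM in VQ-D5 and 8.38, 6.58, 15.9 and 13.4 CPM in t-VK12653, against 21.4, 20.8 and 23.4 CPM in controls, with no overlap. It fell in VQ-D1, VQ-D5 and t-VK12653, with log2 fold changes of -0.62, -0.87 and -1.01 (adjusted p 0.0246, 0.00302 and 9.60e-04); the VQ-D1 call was lost without VQ-D1 replicate 1 or 3 or control replicate 1 or 3 and with counts summed per recipient.

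Fdft1, the squalene synthase, and Lss, the cyclase that makes lanosterol, were highest in VQ-D1. Fdft1 had 72.6, 58.8, 49.1 and 45.3 CPM in VQ-D1 against 27.9, 20.5 and 27.6 CPM in controls (log2 fold change 1.06 ± 0.20, adjusted p 1.21e-04), with no overlap. Lss had 30.4, 33.9, 27.0 and 22.9 CPM in VQ-D1 against 15.2, 9.55 and 13.9 CPM in controls (log2 fold change 1.12 ± 0.21, adjusted p 8.50e-05), again without overlap. Lss also rose in VQ-D2, by 0.67, a call lost without control replicate 2. Tm7sf2, a sterol reductase, rose in VQ-D4, where it had 5.42, 5.11, 5.19 and 4.16 CPM against 1.95, 2.39 and 1.84 CPM in controls (log2 fold change 1.53 ± 0.55, adjusted p 0.0231), a call lost without VQ-D4 replicate 1 or 3 or control replicate 1 or 3. It shares 19.5% of its windows with Vps51 and Fdft1 30.7% with other genes, Ctsb on the opposite strand among them. Dhcr7, which makes cholesterol from its last precursor, passed in no line.

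Among the regulators, each line had its own pattern. Srebf2, the precursor of SREBP2 and the main activator of sterol genes, had 401, 489, 367 and 354 CPM in VQ-D4, against 154, 160.0 and 185 CPM in controls, and rose there by 1.19 ± 0.18 (adjusted p 1.06e-05). All 4 VQ-D4 libraries lay above every other library. In VQ-D2 and t-VK12653 it had 119.7, 104, 117 and 121 and 101, 78.4, 149 and 88.8 CPM and fell with log2 fold changes of -0.51 and -0.62 (adjusted p 0.0257 and 0.00279). The fall in VQ-D2 did not pass without control replicate 3, and the fall in t-VK12653 did not pass in bone marrow libraries alone (adjusted p 0.0833).

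Scap, the escort of SREBP to the Golgi, was raised in VQ-D5. It had 391, 309, 406 and 258 CPM there, against 55.1, 73.0 and 77.5 CPM in controls and 62.2 to 106 CPM in the other tumour libraries, so VQ-D5 overlapped no other group. The log2 fold change over control was 2.34 ± 0.17 (adjusted p 2.58e-10), and over the other VQ lines the change was -2.07 for VQ-D1 over VQ-D5, -1.82 for VQ-D2 over VQ-D5 and -1.98 for VQ-D4 over VQ-D5. A smaller rise passed in VQ-D2 (0.52 ± 0.19, adjusted p 0.0242), but not in DESeq2 or without VQ-D2 replicate 1 or 3, VQ-D5 replicate 1 or control replicate 1. An antisense gene, 5830462I19Rik, covers 11.7% of its windows, and the sources used here do not say whether counting used the strand.

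Insig1, which holds Scap in the endoplasmic reticulum and is itself an SREBP target, had 95.6, 87.6, 116 and 108 CPM in VQ-D2, 113, 85.4, 142 and 115 in VQ-D5 and 132, 113, 142 and 153 in t-VK12653, against 54.5, 35.1 and 53.1 CPM in controls. It rose in these 3 lines by 1.07 ± 0.23, 1.19 ± 0.21 and 1.56 ± 0.21 on the log2 scale (adjusted p 6.08e-04, 7.24e-05 and 3.07e-06), without overlap. It had 30.3 to 40.5 CPM in VQ-D1 and 40.2 to 71.3 CPM in VQ-D4 and did not pass there. Stard4, a cholesterol carrier, had 22.7, 19.4, 19.3 and 20.3 CPM in VQ-D1 and 30.3, 22.2, 29.3 and 23.9 CPM in VQ-D2, against 6.48, 8.19 and 9.98 CPM in controls. It rose in both (log2 fold changes 1.39 ± 0.32 and 1.64 ± 0.36, adjusted p 8.99e-04 and 5.70e-04). Srebf1, the precursor of SREBP1 and an activator of fatty acid genes, differed little. It passed as lower in VQ-D4 (-0.38 ± 0.14, adjusted p 0.0243), but its levels there were 56.6, 103, 67.8 and 60.8 CPM and overlapped the controls at 78.5, 68.9 and 80.7 CPM. Its highest VQ-D4 library is the liver one, which has a site term of its own in the fit, and without site terms the log2 fold change was -0.07. The call was also lost without VQ-D4 replicate 1 or 4 or control replicate 1 or 3. With counts summed per recipient the log2 fold change was 0.14, the opposite sign, and did not pass.

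In fatty acid synthesis, Fasn and Acaca rose in every line. Acaca, the carboxylase that makes malonyl-CoA, had 30.6, 40.9, 39.0 and 42.2 CPM in VQ-D1. VQ-D2 had 29.8, 30.3, 25.8 and 36.0, VQ-D4 had 15.4, 24.1, 16.5 and 20.8, VQ-D5 had 28.0, 34.9, 36.5 and 38.1 and t-VK12653 had 27.9, 20.9, 30.9 and 23.6 CPM, against 10.1, 11.9 and 10.2 CPM in controls. Fasn, the synthase that makes palmitate, had 413, 569, 460.2 and 531 CPM in VQ-D1. VQ-D2 had 541, 634, 575 and 639.6, VQ-D4 had 359, 437, 317 and 376, VQ-D5 had 667, 764, 798 and 906 and t-VK12653 had 398, 451, 402 and 437 CPM, against 126, 138 and 136 CPM in controls. Neither gene overlapped the controls in any library. The log2 fold change of Fasn was 2.24 ± 0.29 for the VQ line sums (adjusted p 0.00506) and, by line, between 1.27 in VQ-D4 and 2.43 in VQ-D5. For Acaca it was 1.67 ± 0.31 for the line sums (adjusted p 0.0108) and between 0.62 in VQ-D4 and 1.83 in VQ-D1. The Acaca call in VQ-D4 was lost in bone marrow libraries alone. Acaca shares 49.1% of its windows with Gm5182.

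The genes that supply this pathway differed by line. Acly makes cytosolic acetyl-CoA from citrate. It had 288, 268, 299.8 and 335 CPM in VQ-D5 against 150.4, 144 and 153 CPM in controls and rose by 0.93 ± 0.11 (adjusted p 1.14e-07). In t-VK12653 it had 116, 110.4, 138 and 139 CPM and fell with a log2 fold change of -0.32 (adjusted p 0.0118), a call lost in bone marrow libraries alone, with counts summed per recipient, without site terms and without the filter on low counts. Acss2, which makes acetyl-CoA from acetate, had 56.8, 54.5, 53.8 and 62.6 CPM in VQ-D1 and 42.6, 44.6, 51.9 and 49.4 CPM in t-VK12653, against 17.2, 15.7 and 18.1 CPM in controls. It rose in both by 1.73 ± 0.16 and 1.45 ± 0.16 on the log2 scale (adjusted p 7.66e-09 and 1.32e-07). In VQ-D2, VQ-D4 and VQ-D5 it had 14.6 to 20.9, 16.6 to 43.8 and 16.8 to 21.7 CPM and did not pass, and the highest of these values is the VQ-D4 liver library.

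Me1, the malic enzyme that makes cytosolic NADPH, moved in opposite directions in lines of 1 genotype. VQ-D1 had 4.2, 6.10, 6.38 and 6.83 CPM and t-VK12653 12.0, 8.28, 9.16 and 7.95 CPM, against 1.95, 1.02 and 3.42 CPM in controls, and Me1 rose in both (log2 fold changes 1.60 ± 0.59 and 2.24 ± 0.58, adjusted p 0.0238 and 0.00235). VQ-D2 had 0, 0.290, 0.194 and 0.647 CPM, VQ-D4 0.756, 0.155, 0 and 0 CPM and VQ-D5 0, 0.230, 0 and 0 CPM, all below the controls. These are 6, 7 and 1 reads over 4 libraries. Me1 fell in VQ-D2 and VQ-D4 with log2 fold changes of -2.58 and -2.28 (adjusted p 0.0245 and 0.0253), and both calls were lost without control replicate 3, that in VQ-D2 without VQ-D2 replicate 1 or 2 and that in VQ-D4 without VQ-D4 replicate 3. The rise in VQ-D1 was lost without VQ-D1 replicate 3 or control replicate 1 or 2. For VQ-D5 the ratio of control to VQ-D5 was 55.4, with an exact 95% counting interval of 8.96 to 2287, which covers counting error only. Me1 shares 30.4% of its windows with other genes.

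The widest differences were in elongation and desaturation. Elovl6 had 104, 107, 115 and 112 CPM in VQ-D2 and 113, 97.1, 121 and 98.3 CPM in VQ-D5. It had 15.8, 23.7, 27.1 and 32.1 CPM in VQ-D1, 28.7, 13.5, 26.6 and 24.9 in VQ-D4 and 14.2, 11.5, 17.0 and 18.1 in t-VK12653, against 8.75, 6.14 and 4.2 CPM in controls. All 20 tumour libraries lay above the controls, and VQ-D2 and VQ-D5 lay above all other libraries. The log2 fold change over control was 4.06 ± 0.27 in VQ-D2 and 4.06 ± 0.25 in VQ-D5, 1.96 ± 0.26 in VQ-D1, 2.06 ± 0.27 in VQ-D4 and 1.22 ± 0.27 in t-VK12653, with an adjusted p of at most 6.13e-04. VQ-D1 was below VQ-D2 and VQ-D5 by the same log2 fold change of -2.10 (adjusted p 2.43e-09 and 2.47e-09).

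Scd1 and Scd2 are stearoyl-CoA desaturases, which make oleate and palmitoleate. VQ-D1 had 5.92, 0.165, 0.676 and 0.279 CPM of Scd1 and VQ-D2 had 0.149, 0.869, 0 and 0.216 CPM. VQ-D4 had 0.504, 6.50, 0.973 and 0.640 CPM and VQ-D5 0, 0.230, 1.70 and 0.583 CPM, against 33.1, 118 and 121 CPM in controls. No VQ library reached the controls, and it fell in the VQ line sums with a log2 fold change of -6.11 ± 0.77 (adjusted p 0.00476). In t-VK12653 it had 43.9, 30.1, 4.41 and 4.66 CPM, which overlapped the controls, with 1 bone marrow library above the lowest control and the other 3 libraries below it (log2 fold change -1.75, adjusted p 0.0925, not passed). The control with the lowest Scd1 was replicate 1, and the neutrophil marker sum was 3113 CPM there and 8585 and 3550 CPM in replicates 2 and 3. The highest Scd1 in VQ-D1 was in replicate 1, at 5.92 CPM, which also had the highest neutrophil sum among tumour libraries, 1150 CPM. The levels did not go together throughout. In t-VK12653 replicates 1 to 4, Scd1 at 43.9, 30.1, 4.41 and 4.66 CPM stood beside neutrophil sums of 147, 5.64, 86.2 and 7.13 CPM. The highest in VQ-D4 was the liver library. The part of other cells in the Scd1 levels was not tested.

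Scd2 had the widest range of levels. It had 750.5, 1071, 1105 and 1175 CPM in VQ-D1, 241, 429, 352 and 263 in VQ-D4 and 887, 878, 517 and 474 in t-VK12653, against 159, 95.5 and 99.8 CPM in controls, with no overlap. It rose in these 3 lines by 3.05 ± 0.36, 1.13 ± 0.37 and 2.48 ± 0.35 on the log2 scale (adjusted p 2.33e-06, 0.0161 and 1.61e-05), and in VQ-D4 the call was lost with bone marrow libraries alone and without VQ-D4 replicate 3 or control replicate 2 or 3. VQ-D2 had 41.2, 95.8, 81.3 and 110.4 CPM and VQ-D5 133, 107, 174 and 116 CPM, which overlapped the controls and did not pass. Per length, Scd1 made up at most 1.68% of the summed TPM of Scd1 and Scd2 in the VQ libraries and 0.953% to 5.28% in t-VK12653, against 19.0%, 58.1% and 57.7% in controls. The 2 genes share few windows: 4.61% of those of Scd1 and 4.01% of those of Scd2 occur in another gene.

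Fads1 and Fads2 insert double bonds into polyunsaturated fatty acids. Fads2 had 0.987, 0.329, 0.580 and 0.697 CPM in VQ-D1 and 1.89, 0.929, 1.95 and 1.60 CPM in VQ-D4, against 13.9, 11.3 and 30.0 CPM in controls, with no overlap. It fell with log2 fold changes of -4.67 and -3.33 (adjusted p 1.65e-08 and 2.60e-06). In VQ-D2, VQ-D5 and t-VK12653 it had 15.1 to 25.9, 14.0 to 38.0 and 7.68 to 18.0 CPM and did not pass. Fads1 had 27.9, 32.9, 36.4 and 32.2 CPM in VQ-D1, 55.5, 53.5, 51.2 and 48.3 in VQ-D2, 34.7, 29.2, 46.1 and 43.7 in VQ-D5 and 47.7, 41.6, 45.8 and 43.6 in t-VK12653, against 12.0, 12.3 and 10.2 CPM in controls. It rose in these 4 lines, by 1.47 to 2.06. In VQ-D4 it had 14.5, 18.6, 14.6 and 16.3 CPM, above every control but with a log2 fold change of 0.31 (adjusted p 0.164).

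**Figure D4:**
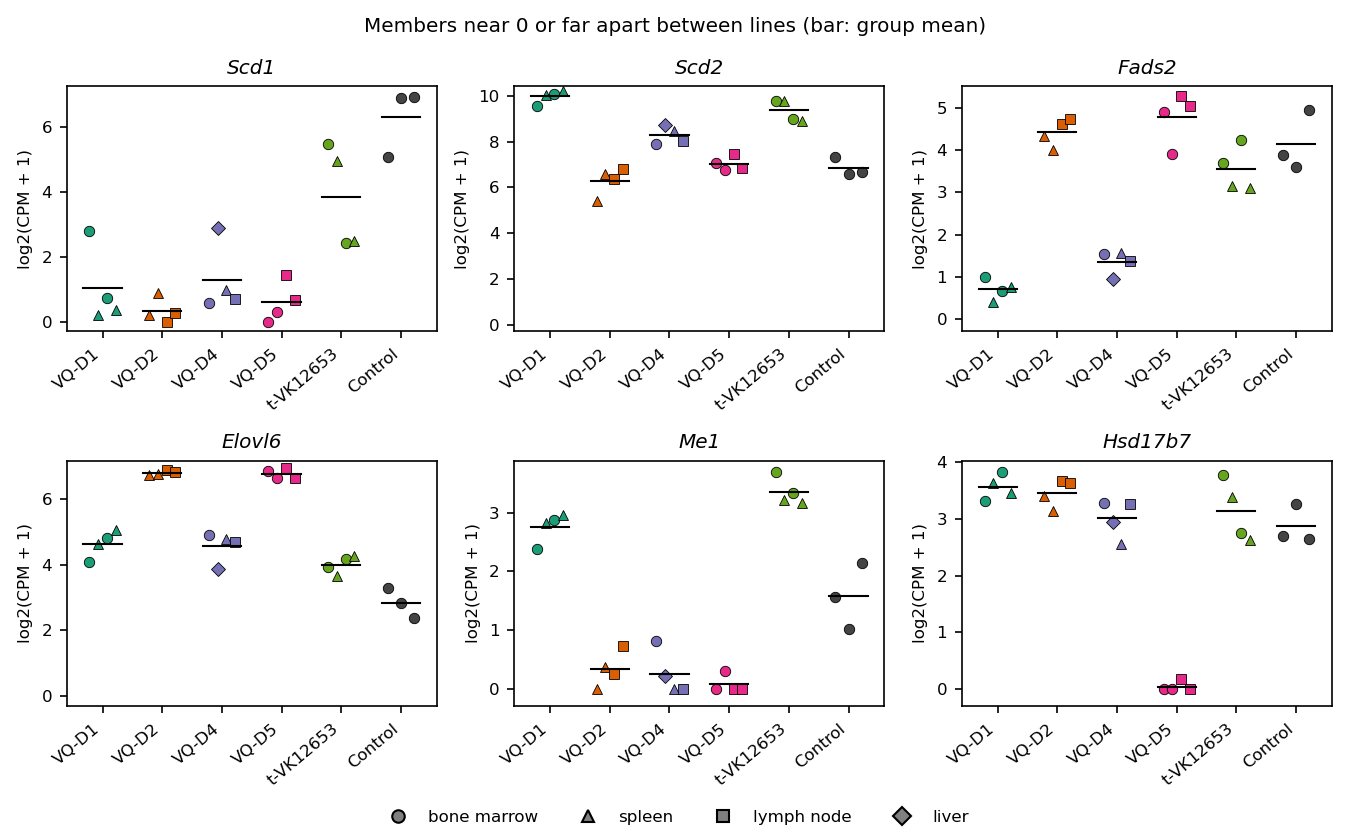
Points give log2(CPM + 1) per library for 6 genes by group, with symbols for the site and a bar at the group mean. Fads2 is near 0 to 2 in VQ-D1 and VQ-D4 only among tumour lines, where Scd2 is above control, Me1 is above control in VQ-D1 and t-VK12653, and Hsd17b7 is near 0 in the 4 VQ-D5 libraries.

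On the per-length TPM scale the leading gene differed between groups. It was Scd2 in VQ-D1 (460.3 TPM) and t-VK12653 (255 TPM), Fasn in VQ-D2 (159.9 TPM), Srebf2 in VQ-D4 (186 TPM), Scap in VQ-D5 (183 TPM, with Fasn at 181 TPM), and Srebf2 in controls (88.1 TPM). These are mean levels, given as a description.

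The VQ lines and t-VK12653 differ by label in Nras Q61R and in IgG1-Cre, and these cannot be told apart here. The MYC-only side has 1 donor. The p-values of this comparison measure the spread between libraries and not between donors. In the fit of all libraries 11 of the 32 genes were higher in VQ and 8 lower, where 29.6% of all genes were higher and 31.6% lower (61.2% in all). The largest differences up were Elovl6 (1.82 ± 0.16), Stard4 (1.39 ± 0.26), Pmvk (1.39 ± 0.21), Mvk (0.81 ± 0.33), Srebf2 (0.77 ± 0.13) and Scap (0.73 ± 0.13), as log2 fold changes of the mean of the 4 lines. Adjusted p lay between 3.62e-09 for Elovl6 and 0.0366 for Mvk. The largest down were Scd1 (-5.17 ± 0.82), Me1 (-4.26 ± 0.47), Hsd17b7 (-1.76 ± 0.30), Scd2 (-1.63 ± 0.23), Fads2 (-1.29 ± 0.27) and Insig1 (-1.05 ± 0.14), with an adjusted p of at most 3.15e-04. Of these 12 genes only Me1 had VQ and t-VK12653 libraries that did not overlap, at 0 to 6.83 CPM in VQ and 7.95 to 12.0 CPM in t-VK12653. The 12 were picked for their size in these libraries, and the share of all genes without overlap is not given here. The fitted values of Hsd17b7 and Me1 include VQ-D5 at 1 read and depend on the prior count of the fit. A mean over 4 lines can rest on 1 of them: Hsd17b7 in VQ-D1, VQ-D2 and VQ-D4 was at 4.87 to 13.2 CPM, against 5.21 to 12.7 CPM in t-VK12653. In mean TPM, Scap was at 183 in VQ-D5, 39.9 to 60.4 in the other VQ lines and 35.2 in t-VK12653. Srebf2 was at 186 in VQ-D4, 67.3 to 90.3 in the other VQ lines and 45.1 in t-VK12653. Such a mean can also hide lines that go the other way. Scd2 was at 460 TPM in VQ-D1, 40.2 to 125 in the other VQ lines and 255 in t-VK12653. Mean Fads2 was higher in VQ-D2 and VQ-D5 (37.2 and 43.3 TPM) than in t-VK12653, and lower in VQ-D1 and VQ-D4. In CPM the Fads2 ranges of VQ-D2 and VQ-D5 overlapped that of t-VK12653. The Mvk call was lost with counts summed per recipient, with the replicate numbers as a block, and without 1 library in 7 cases: t-VK12653 replicate 1, 3 or 4, VQ-D2 replicate 1, VQ-D4 replicate 3, or VQ-D5 replicate 1 or 2.

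Among the 4 VQ lines, 26 of the 32 genes differed by an F-test over the lines, where 80.6% of all genes did. The 6 that did not pass were Acat2, Mvk, Idi1, Ebp, Sc5d and Scd1. By pair, 9 were higher and 10 lower in VQ-D1 than in VQ-D2, where 24.8% of all genes were higher and 26.5% lower (51.3% in all). Against VQ-D4, VQ-D1 had 12 higher and 4 lower (20.4% and 20.8% of all genes, 41.2% in all), and against VQ-D5 it had 9 higher and 8 lower (28.8% and 29.7%, 58.5% in all). VQ-D2 had 11 higher and 4 lower than VQ-D4 (29.4% and 27.6%, 57% in all) and 6 higher and 4 lower than VQ-D5 (18.6% and 20%, 38.6% in all). VQ-D4 had 9 higher and 12 lower than VQ-D5 (29.1% and 29.6%, 58.7% in all). In both directions 31.2% to 65.6% of the 32 genes differed by pair, and 38.6% to 58.7% of all genes.

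VQ-D1 against VQ-D2 was led by Me1 (4.19 ± 0.80), Scd2 (3.81 ± 0.35) and Acss2 (1.68 ± 0.14) on the higher side and Fads2 (-4.86 ± 0.43), Elovl6 (-2.10 ± 0.18), Insig1 (-1.46 ± 0.19) and Pmvk (-1.41 ± 0.23) on the lower. VQ-D1 against VQ-D5 had the same 7 genes with the same signs, Pmvk at -2.18 ± 0.23 and Fads2 at -5.07 ± 0.43. These 2 comparisons share the VQ-D1 libraries. VQ-D4 against VQ-D5 differed most in Hsd17b7, at 154 reads over the 4 VQ-D4 libraries against 1 read in VQ-D5 (ratio at equal depth 185, exact 95% counting interval 32.7 to 7349), in Fads2 (-3.73 ± 0.41) and in Pmvk (-2.43 ± 0.25). VQ-D2 against VQ-D5 differed in Scap (-1.82 ± 0.15), Stard4 (1.23 ± 0.27), Nsdhl (1.01 ± 0.21) and Mvd (0.89 ± 0.21), beside Hsd17b7. VQ-D1 against VQ-D4 differed in Me1 (3.89 ± 0.73), Scd2 (1.92 ± 0.33), Acss2 (1.52 ± 0.15), Stard4 (1.51 ± 0.30) and Srebf2 (-1.09 ± 0.15). VQ-D2 against VQ-D4 differed in Fads2 (3.52 ± 0.42), Tm7sf2 (-2.27 ± 0.50) and Elovl6 (2.0 ± 0.19). All are log2 fold changes ± SE at an adjusted p under 0.05. With counts summed per recipient, 8 of the 32 genes differed between VQ-D1 and VQ-D4 in place of 16. The Stard4 call of that pair was lost there and in bone marrow libraries alone, and the Mvd call of VQ-D2 against VQ-D5 was lost too. The fitted Me1 difference of VQ-D1 and VQ-D4 lay between 2.80 and 8.21 over the alternatives.

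The site of the tumour cells was compared within lines. None of the 32 genes passed between spleen and bone marrow, lymph node and bone marrow, or lymph node and spleen, in edgeR's quasi-likelihood test. At an unadjusted p under 0.05 there were 2, 3 and 4 genes, and DESeq2 called 0 of the 32 in each. Of all 12867 genes, 0%, 0.0155% and 0.0311% passed. Fasn was the gene with the smallest p for lymph node over bone marrow, with a log2 fold change of 0.23 (adjusted p 0.57), and it was higher in the lymph node library in 3 of 3 same-recipient pairs. These pairs are of the libraries in the fit. Acaca, Acly, Fads1, Fdft1, Lss, Scd1, Scd2 and Srebf1 were also higher in 3 of 3, and Acat2 was lower in 3 of 3. For lymph node over spleen, Fasn, Hsd17b7, Insig1, Lss and Mvd were higher in 3 of 3 and Scap and Scd1 lower. For spleen over bone marrow, Cyp51 was lower in 5 of 5. With so few pairs, agreement can arise without a site effect, and the share of all genes that agree is not given here. Fitted differences of the 32 genes lay between -0.46 and 0.40 for lymph node over bone marrow, between -0.13 and 0.99 for lymph node over spleen and between -0.68 and 0.17 for spleen over bone marrow. Their median SE was 0.16, 0.16 and 0.14 on the log2 scale. With a term per recipient in place of the line, 0 of the 32 genes passed in each. VQ-D1 and t-VK12653 share the same sites, and the spleen effect did not differ between them for any of the 32 genes at the threshold (0% of all genes; 3 genes at an unadjusted p under 0.05, and 0 by DESeq2). The fitted differences in spleen effect lay between -2.93 for Scd1 and 1.17 for Acat2, and Scd1 passed when genes of low counts were kept.

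**Figure D5:**
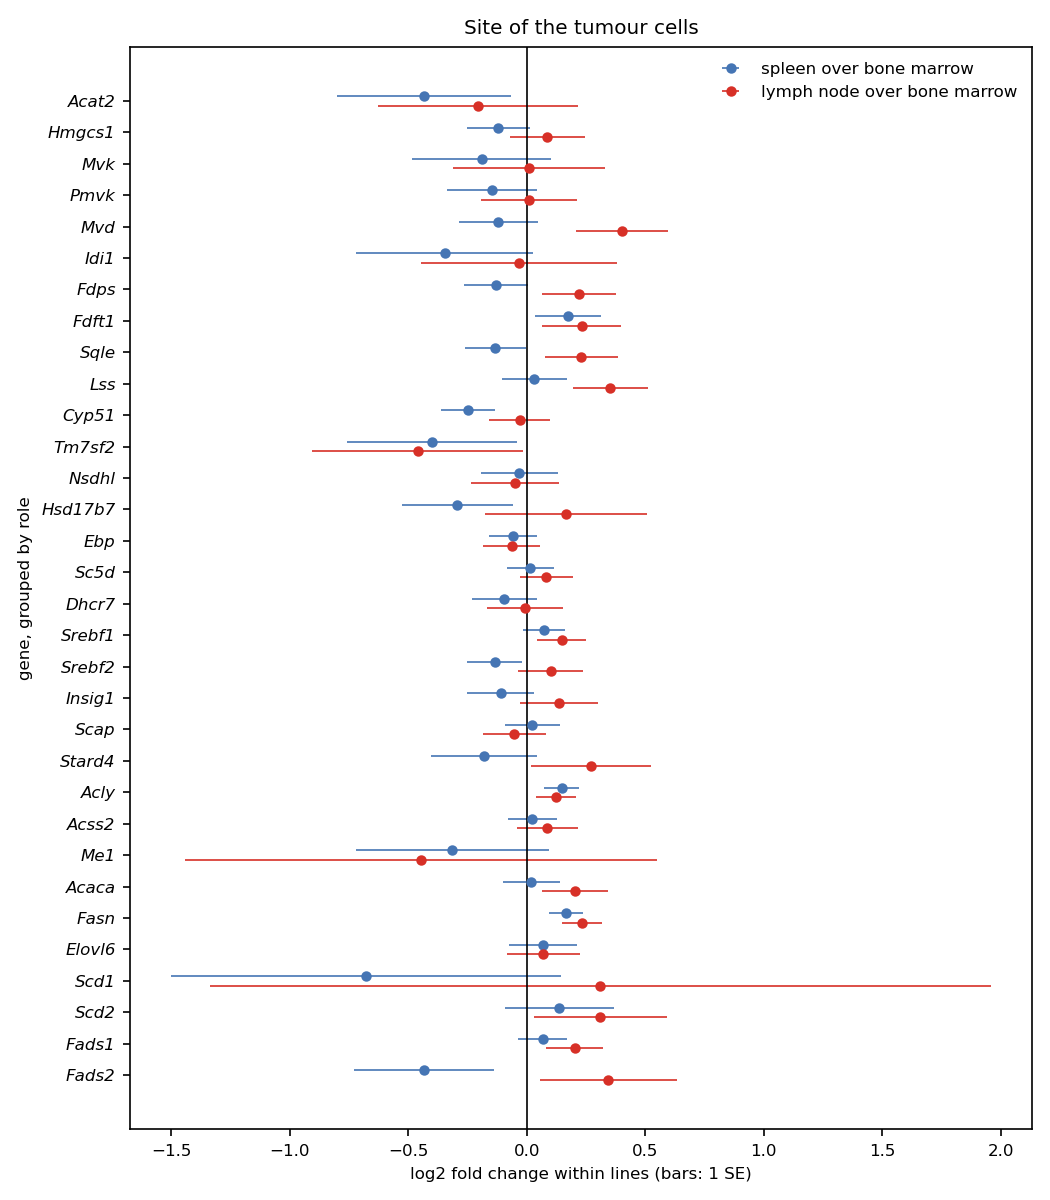
Points give the log2 fold change of spleen over bone marrow and of lymph node over bone marrow within lines, with bars of 1 SE, for the 32 genes. No gene exceeds 1 in size, and Scd1 and Me1, which have few reads in the VQ lines, have the widest bars.

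The 1 liver library of VQ-D4 has no replicate and no test. Of the 4 VQ-D4 libraries it had the highest Sqle (121 CPM), Srebf2 (489 CPM), Acss2 (43.8 CPM), Srebf1 (103 CPM), Scd1 (6.50 CPM) and Hmgcs1 (45.7 CPM), and the lowest Elovl6 (13.5 CPM). It also had the highest hepatocyte marker sum of any library, and the part of liver cells in these levels was not tested.

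Other genes around these pathways were counted in 5 lists. In the VQ line sums against control, where 13.7% of all genes were higher and 9.27% lower, 4 of 13 genes of the isoprenoid branch rose and 0 fell, led by the geranylgeranyl transferase subunits Rabggta (2.06 ± 0.33) and Rabggtb (1.72 ± 0.31). Of 10 genes of SREBP processing, Mbtps2, the site-2 protease, rose (1.50 ± 0.25). Of 10 tested genes of sterol efflux and storage, Cyp27a1, the sterol 27-hydroxylase, rose (2.91 ± 0.63). Of 18 genes of fatty acid supply, elongation and esterification, Hsd17b12, the ketoacyl reductase of the elongation cycle, rose (2.32 ± 0.25) and Acsl1, an acyl-CoA synthetase, fell (-1.86 ± 0.39). Of 10 genes of fatty acid oxidation, Acadvl, the very long chain acyl-CoA dehydrogenase, rose (0.97 ± 0.25). All values are log2 fold changes ± SE, with an adjusted p of at most 0.0309. The list medians were 0.79, -0.11, 0.27, 0.35 and 0.35, and the median of all genes was 0.19.

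Against t-VK12653, the VQ lines had 8 higher and 2 lower of 13 isoprenoid genes, 4 and 1 of 10 SREBP processing genes, 2 and 2 of 9 tested efflux genes, 7 and 5 of 18 supply genes and 0 and 4 of 9 tested oxidation genes, where 29.6% of all genes were higher and 31.6% lower. Acsl3, another acyl-CoA synthetase, had 0 reads over the 4 t-VK12653 libraries and 67 over the 3 controls, which at equal depth is at least 37.7-fold lower in t-VK12653 with a floor of 3 reads over the line, and it fell there (adjusted p 7.76e-08, edgeR's quasi-likelihood test). It also fell in VQ-D2, at 3 reads, where the ratio of control to VQ-D2 was 53.2 with an exact 95% counting interval of 17.4 to 264, and it rose in VQ-D1 (1.67 ± 0.30). Acsl3 levels were above the controls (5.46 to 8.41 CPM) in VQ-D4 and VQ-D5 too, at 11.2 to 18.3 and 15.8 to 29.7 CPM. Mylip, which marks lipoprotein receptors for degradation, was lower in VQ than in t-VK12653, with a log2 fold change of -3.20 ± 0.18 (adjusted p 2.50e-12). It was lowest in VQ-D2, at 0.145 to 0.448 CPM, against 65.5 to 72.2 CPM in controls.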

How the data were processed

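RNA of 23 libraries of sorted CD138+B220- mouse cells was made into stranded total RNA libraries for picogram inputs, per the labels' protocols. The submitters' processing notes name STAR, featureCounts, DESeq2, mm10 and GRCm38 without versions; the sources used here give neither annotation nor strand setting. Each deposited table holds whole, unnormalized read counts per gene made by the authors, beside FPKM values (not used here) and TPM values that the authors scaled by gene length and depth. TPM served to compare levels between genes and, as group means, to describe single genes across groups. The TPM values were not scaled by TMM and were not tested.

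Tests used edgeR 4.0.16 under R 4.3.3 (limma 3.58.1), with DESeq2 1.42.0 as an alternative. The robust quasi-likelihood F-test of edgeR was run after TMM scaling and filterByExpr, whose minimum was 10 for a count and 15 for a total. The threshold was a Benjamini-Hochberg adjusted p under 0.05, over all genes tested. For the VQ genotype against control, each donor's counts were summed first. All other comparisons came from 1 fit of 23 libraries with group and site, except the comparison of spleen effects, fitted on the libraries of VQ-D1 and t-VK12653. The scripts were tested on simulated counts, with 100 genes changed 2-fold and 100 changed 4-fold. The test on line sums recovered 1% and 37% of them, and VQ-D1 against control 73% and 94%. Recovery was 83% and 98% for lymph node against bone marrow and 20% and 89% for the difference in spleen effect. The share of changed genes was set in the simulation and differs from that in the data, so these figures need not hold there. Errors are SE for log2 fold changes and SD for levels. Intervals of read ratios are exact, at 95%, and cover counting error only.

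The members and lists were chosen with earlier results of these data known. Named members followed a rule (up to 6 per direction and comparison with the largest change), and other members are given with their levels. Shared 50-base windows and promoters came from GENCODE and RefSeq tables of GRCm38. Recipients were read from the names of the deposited tables and used only in alternative fits and in same-recipient pairs. Replicate numbers did not pair the samples: of 50 same-numbered pairs across groups, 3 had deviations correlated over 0.1. Within groups every pair of libraries differed by more than counting noise (lowest chi-square over its degrees of freedom 4.83).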

Additional observations from a re-analysis of the deposited data

Results flagged for a closer look

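Single libraries stood apart from the other 3 of their line in 7 of 160 combinations of gene and line tested with Dixon's criterion, which chance meets in about 1 of 20. Scd1 was at 5.92 CPM in VQ-D1 replicate 1 (bone marrow), against 0.165 to 0.676 CPM in the other VQ-D1 libraries, and at 6.50 CPM in VQ-D4 replicate 2 (liver), against 0.504 to 0.973 CPM in the other VQ-D4 libraries. Sqle was at 86.5 CPM in t-VK12653 replicate 3, against 54.8 to 58.1 CPM. Fdps was at 18.5 CPM in VQ-D4 replicate 4 (lymph node), against 23.2 to 23.4 CPM. Idi1 was at 0.689 CPM in VQ-D5 replicate 2, against 3.80 to 4.31 CPM. The 1 read of Hsd17b7 in VQ-D5 replicate 3 (0.131 CPM) and the 1 read of Me1 in VQ-D5 replicate 2 (0.230 CPM) met the criterion because the other VQ-D5 libraries were at 0.

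Lines of the same genotype differed in the direction of their change from control for 3 genes, with the difference itself tested between the lines by edgeR's quasi-likelihood test. The genes were picked for opposite calls in the same fit, so the test between lines is no separate support. The share of all genes with opposite calls is not given here, and 80.6% of all genes differed among the VQ lines. Hsd17b7 differed between VQ-D1 and VQ-D5 by a fitted log2 fold change of 7.68 (adjusted p 1.68e-10). Srebf2 differed between VQ-D2 and VQ-D4 by -1.69 (adjusted p 1.18e-08). Me1 was higher in VQ-D1 than in VQ-D2 by 4.19, than in VQ-D4 by 3.89 and than in VQ-D5 by 6.43 (adjusted p 1.40e-04, 2.09e-04 and 6.37e-06). Fitted values against VQ-D5, which holds 1 read of each of Hsd17b7 and Me1, depend on the prior count of the fit. The ratio of reads at equal depth was 280.1 for Hsd17b7 (exact 95% counting interval 49.9 to 11099) and 151 for Me1 (26.8 to 6009), VQ-D1 over VQ-D5.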

How the results depend on the processing

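The 1 call on a member that changed sign was Srebf1 in VQ-D4 against control, at 0.14 with counts summed per recipient (an alternative added after seeing the data). That fit gave 8 genes for VQ-D1 against VQ-D4, where 16 passed with libraries, and counts within 1.5 times for the other comparisons of lines; the cause was not tested. For the VQ lines against control, 9 of the 32 genes passed in the main test and 7 with RLE size factors, which shifted the median of all genes by -0.11 on the log2 scale. DESeq2 called 11. Averaging the 4 lines within the 23-library fit gave 23 (19 higher, 4 lower), and 18 (14 higher, 4 lower) with the replicate block added. The 9 genes of the main test were among them both times. Of all genes, 3192 passed in the main test, 7786 and 7547 in those fits, 2027 in bone marrow libraries alone (which leave out VQ-D2) and 1148 to 1226 without 1 control. Leaving out 1 line or control gave 3 to 11, lowest without control replicate 1 or 3 (3 each) and 4 without control replicate 2. With both libraries that stood apart in Scd1 left out (VQ-D1 replicate 1 and VQ-D4 replicate 2, chosen after seeing the data), 10 passed and all 9 were kept. In bone marrow libraries alone, 9 genes differed between VQ-D4 and control, where 14 did in all libraries, and 9 between VQ-D1 and VQ-D4, where 16 did; the cause was not tested, and these fits hold fewer libraries. For the difference in spleen effect, 1 gene (Scd1) passed without the filter on low counts and 0 with it.

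Leaving out 1 library gave 15 to 22 genes for VQ-D1 against control (20 in all libraries), 15 to 19 for VQ-D2 (18), 10 to 15 for VQ-D4 (14), 15 to 19 for VQ-D5 (17), 12 to 16 for t-VK12653 (14) and 18 to 22 for VQ against t-VK12653 (19). The replicate numbers pair no samples (correlations of deviations -0.28 to 0.22), and no other count of the 32 genes moved by over 1.5 times with the replicate block. Depth limits the genes of few reads: Idi1, Me1, Tm7sf2 and Scd1 in the VQ lines.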
